A study of Homo sapiens with 6 samples.

Results

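The 9 genes described here, MDM2, CDKN1A, BTG2, FAS, ZMAT3, TP53I3, GDF15, RRM2B and SESN1, are established transcriptional targets of the tumour suppressor p53. They were given by name, and are 9 of the 60499 gene IDs in the deposited tables. All 9 matched an Ensembl gene ID and passed the filter on low counts, so each is among the 17608 genes tested. The cells were of the H1 human embryonic stem cell line, kept 4 days in NutriStem medium on coated wells; laminins are basement membrane proteins that hold such cells to the dish. The coating was laminin-521 (LN-521) in 3 wells and laminin-521 with laminin-221 (LN-521+LN-221) in the other 3, and total RNA was sequenced from each well. The labels name no genetic change, drug or DNA-damaging agent in any well. Laminin-521 was present in both groups, so the comparison is of coatings with and without laminin-221. The treatment labels give no amount of either laminin, so a difference in the amount of laminin-521 cannot be told apart from the presence of laminin-221. The labels number the samples as biological replicates, while the growth protocol speaks of wells in triplicate. Nothing says that they came from separate cultures, so p-values and SDs measure the spread between these samples of 1 cell line, which may be technical.

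p53 is a transcription factor that binds DNA as a tetramer and switches on genes for cell cycle arrest, cell death, DNA repair and metabolic protection. MDM2, a ubiquitin ligase that marks p53 for degradation, is itself a p53 target, which closes a negative feedback loop. In human embryonic stem cells p53 protein is kept low by such regulators, and its activity is known for promoting death or differentiation after damage. RNA levels of its targets are a usual indirect reading of its activity, although each target also has other regulators.

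p53 binds pairs of 10-base half-sites, and the sequences below show where an abutting pair lies near a start site of the genes discussed here. RefSeq windows of 300 bases (250 before to 50 after a transcript start, build GRCh38.p14) were searched on both strands for the consensus p53 element with at most 3 mismatches, keeping the central C and G of each half-site. The motif is its own reverse complement, so both strands give the same matches. Of all 35116 windows 1.12% held a match. Windows were found for 8 of the 9 members, and 5 of their 16 windows, from MDM2, SESN1, FAS and GDF15, held one. The elements of the 4 members are shown with that of PMAIP1, a death gene that changed between the coatings. Capitals mark the element found by this search, and flanking bases that no exon covers are in lower case. An element that lacks a central C or G, or whose half-sites do not abut, would not be marked.
MDM2: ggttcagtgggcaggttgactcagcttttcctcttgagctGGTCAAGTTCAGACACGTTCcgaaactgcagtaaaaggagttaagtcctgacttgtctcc
SESN1: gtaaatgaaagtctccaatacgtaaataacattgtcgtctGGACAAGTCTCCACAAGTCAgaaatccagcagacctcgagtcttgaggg
FAS: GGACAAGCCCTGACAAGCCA
GDF15: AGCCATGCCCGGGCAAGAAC
PMAIP1: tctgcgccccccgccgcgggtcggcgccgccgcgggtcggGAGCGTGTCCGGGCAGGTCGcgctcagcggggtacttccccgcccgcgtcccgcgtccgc

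The MDM2 stretch is chr12:68808883-68808982 on the plus strand, inside the gene, and its element has 2 mismatches and begins 101 or 94 bases before the internal start sites, depending on the transcript. The SESN1 stretch is chr6:109008989-109009077 on the minus strand, upstream of an internal start, with 3 mismatches. The FAS element is chr10:88991309-88991328 on the plus strand, with 2 mismatches, inside the gene and within an exon of at least 1 annotated transcript. The GDF15 element, at chr19:18386186-18386205 on the plus strand, lies after the start site, within an exon, and has 3 mismatches. The PMAIP1 stretch is chr18:59899771-59899870 on the plus strand, and its element begins 185 bases before the start site with 3 mismatches. A match describes letters only and is not a measurement of binding, and no match says only that these letters are not in this window.

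RRM2B was the 1 member of the 9 to pass the test between the coatings: it fell, by 18.4%. For the other 8 members no difference passed the threshold, including MDM2, CDKN1A and GDF15, targets commonly used to read p53 activity. The test was edgeR's quasi-likelihood test, with Benjamini-Hochberg adjustment over all 17608 genes and a threshold of 0.05; 2.53% of these genes passed in either direction, 1.4% as higher and 1.14% as lower on LN-521+LN-221. A count of 1 in 9 is not by itself a result about the group. The members' median log2 fold change, LN-521+LN-221 against LN-521, was -0.0062, beside -0.0011 for all genes tested, and 4 members had a value above 0 and 5 below. In bulk RNA, fewer cells expressing a gene and less RNA per cell cannot be told apart.

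Facts of the whole series bear on these values. Total counts per library were 20606450 to 26836686. All 10 fixed stem cell markers were detected and tested, with a summed level of 2691 to 3018 TPM on LN-521 against 2766 to 2932 TPM on LN-521+LN-221. Of these 10, 1 rose, 2 fell and 7 did not pass, and 8 fold changes were above 0. NANOG and POU5F1, of the core pluripotency network, were the ones that fell, with log2 fold changes of -0.73 and -0.36 (edgeR adjusted p = 1.65e-04 and 0.00366). Their counts were not whole in any of the 6 libraries, which shows that some of their reads were divided with other genes. LIN28A, an RNA-binding protein that blocks let-7 maturation, rose by 0.23 on the log2 scale (edgeR adjusted p = 0.00737). Of the fixed fibroblast markers COL1A1, COL1A2 and THY1 were expressed while LUM was at 0 in every library, and the summed level of the 7 was 128.3 to 141.2 TPM against 116.3 to 143.0 TPM. Of the 4 fibroblast markers tested, THY1, which human embryonic stem cells also express, fell (log2 fold change -0.38, edgeR adjusted p = 0.0146) and 3 did not pass. The 5 mesoderm markers summed to 1.96 to 2.58 TPM and the 5 endoderm markers to 0.61 to 1.35 TPM over all libraries. The 5 neuroectoderm markers, nearly all OTX2, summed to 42.1 to 49.0 TPM on LN-521 against 79.7 to 80.9 TPM on LN-521+LN-221. Of the 3 tested, OTX2 and ZIC1 rose, with log2 fold changes of 0.72 and 1.36 (edgeR adjusted p = 4.38e-06 and 0.0474), and PAX6 did not pass. The part of these markers in the results that follow was not tested. LN-521 replicate 1 stood apart from the other libraries of its coating on the second principal component of log2 CPM (33.9 against -15.5 and -11.3).

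The members differed far more from each other than between the coatings. On the length-corrected TPM scale, MDM2 was the highest, with a mean of 58.6 TPM over the 6 libraries and a range of 44.5 to 67.1. RRM2B followed at 16.3 TPM (14.0 to 17.8), TP53I3 at 14.1 (13.2 to 14.9) and SESN1 at 8.72 (7.09 to 10.3). The other 5 were low: BTG2 had a mean of 1.39 TPM, CDKN1A 1.32, ZMAT3 1.26, FAS 0.877 and GDF15 0.595. The ranges of RRM2B and TP53I3 overlapped, as did those of each pair of neighbours among the 5 low genes, so their order is within the spread of the libraries. MDM2, TP53I3 and SESN1 each lay clear of the next gene down.

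MDM2, the feedback ligase, is described first. Its CPM (the count scaled to a common library size, by TMM) was 162, 136.5 and 145.2 on LN-521 against 156.0, 157.7 and 146.0 on LN-521+LN-221. The groups overlapped, and LN-521 held both the highest and the lowest library. The means were 147.9 ± 12.98 and 153.3 ± 6.31 CPM (SD, n = 3 each), and the log2 fold change was 0.052 ± 0.064 (SE; edgeR adjusted p = 0.780), with a 95% interval of -0.083 to 0.19. As a percentage the interval is -5.61% to 13.8%. With limma on TPM the log2 difference was larger, at 0.138 to 0.182 over the settings run, and did not pass. MDM2 counts were not whole in any of the 6 libraries, which shows that some reads were divided with other genes, and its exons overlap AC025423.2 on the same strand and CPM, the carboxypeptidase gene, on the other strand.

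CDKN1A and BTG2 restrain the cell cycle. CDKN1A encodes p21, an inhibitor of cyclin-dependent kinases and the best-known mediator of p53-dependent G1 arrest. It was scarce, with 49 to 89 counts per library. Its CPM was 3.88, 3.01 and 3.05 on LN-521 against 2.36, 2.51 and 2.79 on LN-521+LN-221, so the groups did not overlap, and LN-521 replicate 1 was the highest. The log2 fold change was -0.37 ± 0.18 (SE; edgeR adjusted p = 0.367), with a 95% interval of -0.75 to 0.01, and it was -0.24 without LN-521 replicate 1. CPM also failed to overlap for 19.9% of all genes tested, and this was so for 4 of the 9 members: CDKN1A, FAS, ZMAT3 and RRM2B. CDKN1A exons overlap the antisense transcript DINOL. FAS, TP53I3 and SESN1 exons likewise overlap ACTA2, FAM228B and AL390208.1 on the other strand. The sources used here do not say if reads were counted by strand. BTG2, an antiproliferative cofactor of mRNA deadenylation, had CPM of 3.35, 4.21 and 5.06 on LN-521 against 4.38, 4.62 and 3.46 on LN-521+LN-221. The groups overlapped almost wholly, and the log2 fold change was -0.024 ± 0.175 (SE; edgeR adjusted p = 0.969), with a 95% interval of -0.39 to 0.345.

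FAS, ZMAT3 and TP53I3 act in cell death and stress responses. FAS is the cell-surface receptor for Fas ligand. Its CPM was 1.53, 2.03 and 1.32 on LN-521 against 2.26, 2.06 and 2.24 on LN-521+LN-221. The highest LN-521 library was nearly level with the lowest library of the other coating, although the groups did not overlap. Its log2 fold change was 0.42 ± 0.22 (SE; edgeR adjusted p = 0.409), the largest positive value among the members, on 33 to 54 counts per library, and the 95% interval was -0.044 to 0.89. In TPM, the FAS values were 0.68, 0.75 and 0.74 on LN-521 against 0.93, 1.07 and 1.09 on LN-521+LN-221.

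ZMAT3, a zinc finger protein that binds RNA and influences splicing, had CPM of 11.2, 11.8 and 11.6 on LN-521 against 12.9, 12.1 and 12.1 on LN-521+LN-221. The groups did not overlap, but the gap was small, and the log2 fold change was 0.097 ± 0.095 (SE; edgeR adjusted p = 0.704), with a 95% interval of -0.10 to 0.30. Its sign turned on the TPM scale, where the log2 difference was -0.071 with limma on log2(TPM + 1), so no direction can be given. TP53I3, also called PIG3, is a quinone oxidoreductase. It had CPM of 20.3, 20.3 and 19.2 on LN-521 against 19.6, 20.8 and 20.2 on LN-521+LN-221. The groups overlapped, and it was among the tightest members, with a coefficient of variation of 3.06% and 3.12% within the coatings. Its log2 fold change was 0.019 ± 0.081 (SE; edgeR adjusted p = 0.946), with a 95% interval of -0.15 to 0.19.

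GDF15 is a secreted stress cytokine of the TGF-beta superfamily. It was the scarcest member, with 13 to 22 counts per library. Its CPM was 0.61, 0.827 and 0.883 on LN-521 against 0.819, 0.583 and 0.718 on LN-521+LN-221, and the groups overlapped. The log2 fold change was -0.14 ± 0.33 (SE; edgeR adjusted p = 0.895). It depended on single libraries, at -0.28 without LN-521 replicate 1, -0.25 without LN-521+LN-221 replicate 1, -0.085 and -0.036 without LN-521 replicates 2 and 3, and -0.017 without LN-521+LN-221 replicate 2. The 95% interval, -0.83 to 0.55, is the widest of the members, and a moderate change of GDF15 in either direction lies within it.

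RRM2B and SESN1 serve nucleotide supply and metabolic protection. RRM2B (ENSG00000048392) encodes p53R2, the ribonucleotide reductase subunit that provides deoxynucleotides for DNA repair and mitochondrial DNA outside S phase. Its CPM was 88.8, 82.2 and 92.6 on LN-521 against 73.0, 73.2 and 68.9 on LN-521+LN-221. Every LN-521+LN-221 library was below every LN-521 library. The means were 87.9 ± 5.23 and 71.7 ± 2.42 CPM (SD, n = 3 each). The log2 fold change was -0.29 ± 0.06 (SE; edgeR adjusted p = 0.0139), with a 95% interval of -0.43 to -0.16. No exon of another gene overlaps RRM2B in GENCODE release 29, and its counts were whole in all 6 libraries.

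The call for RRM2B was lost in the fits on TPM and in 4 of the 6 fits with a library left out. In the authors' TPM it was 17.8, 17.2 and 16.7 on LN-521 against 14.0, 17.4 and 14.8 on LN-521+LN-221, so LN-521+LN-221 replicate 2 lay among the LN-521 libraries. With limma on log2(TPM + 1) the log2 difference was -0.16 and did not pass (limma adjusted p = 0.793); that fit changed the test and the filter along with the unit, and called 33 genes in all. RRM2B still passed without LN-521 replicate 1 or 2 (edgeR adjusted p = 0.00536 and 0.0011). The adjusted p-value (edgeR) was 0.121 without LN-521 replicate 3, and 0.064, 0.0874 and 0.122 without LN-521+LN-221 replicates 1, 2 and 3, with log2 fold changes from -0.34 to -0.255 when each of the 6 libraries was left out in turn. Over all alternatives run, adjusted p ranged from 7.79e-04 to 0.865.

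SESN1, a sestrin that restrains mTORC1 signalling and limits oxidative stress, had CPM of 25.5, 24.0 and 27.6 on LN-521 against 25.5, 26.8 and 24.5 on LN-521+LN-221. The groups overlapped, and LN-521 held the highest and the lowest library. The log2 fold change was -0.0062 ± 0.0804 (SE; edgeR adjusted p = 0.984), with a 95% interval of -0.18 to 0.16.

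**Figure D1:**
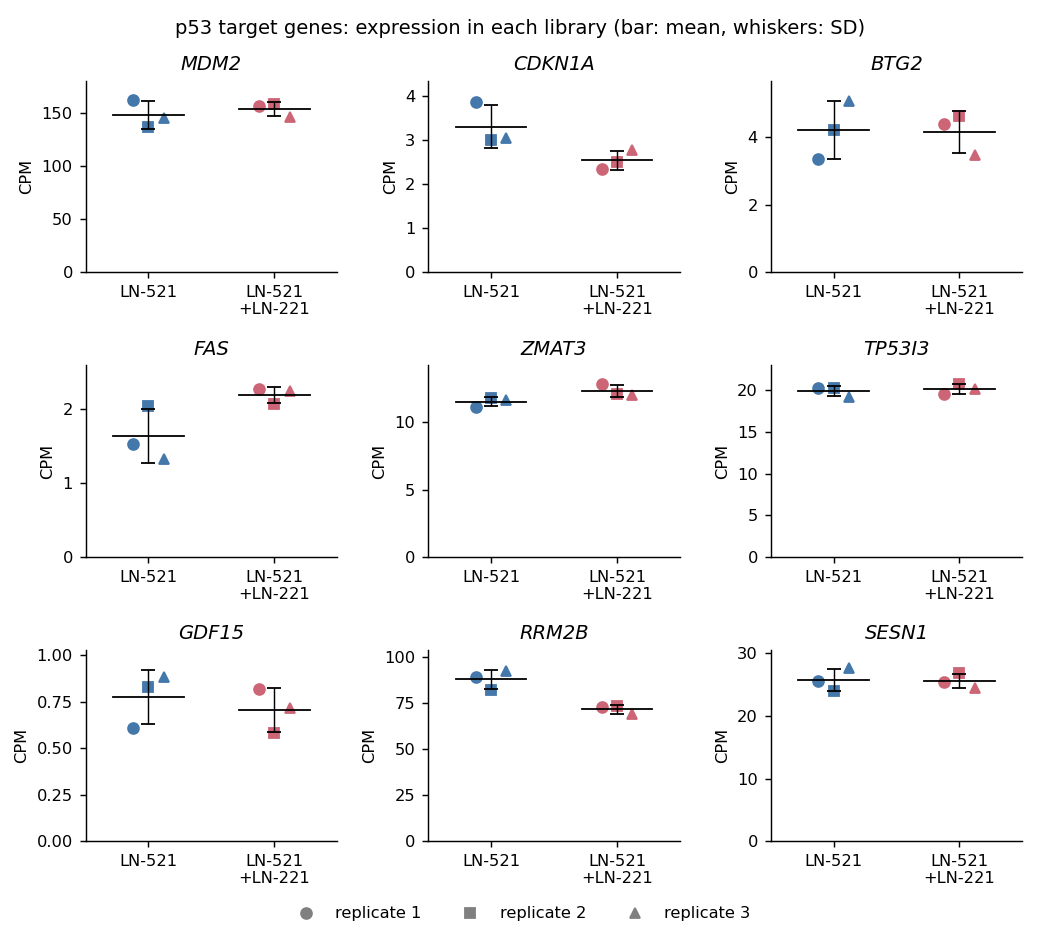
Expression of the 9 p53 targets in CPM (vertical axis from 0) by coating, with a symbol for each replicate library, a bar for the mean and whiskers for the SD of 3 wells. RRM2B separates by coating, at 82.2 to 92.6 CPM against 68.9 to 73.2 CPM, while MDM2, BTG2, TP53I3, GDF15 and SESN1 overlap.

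The plot of CPM beside TPM covers the 4 members whose CPM did not overlap. FAS alone of these also did not overlap in TPM. RRM2B, CDKN1A and ZMAT3 did overlap there. Of the 3503 tested genes whose CPM did not overlap, 39.9% also did not overlap in TPM, beside 12.8% of all genes tested, so 1 in 4 is no result about these members. TPM divides estimated counts by an effective transcript length that is fitted in each library, and is scaled to the same sum in every library. The ratio of TPM to CPM can therefore move between libraries for 1 gene, and also for many genes together. For RRM2B this ratio was 0.200, 0.210 and 0.181 on LN-521 against 0.191, 0.238 and 0.215 on LN-521+LN-221, and the highest ratio belonged to the library that lay among those of the other coating. The cause of that ratio was not tested.

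**Figure D2:**
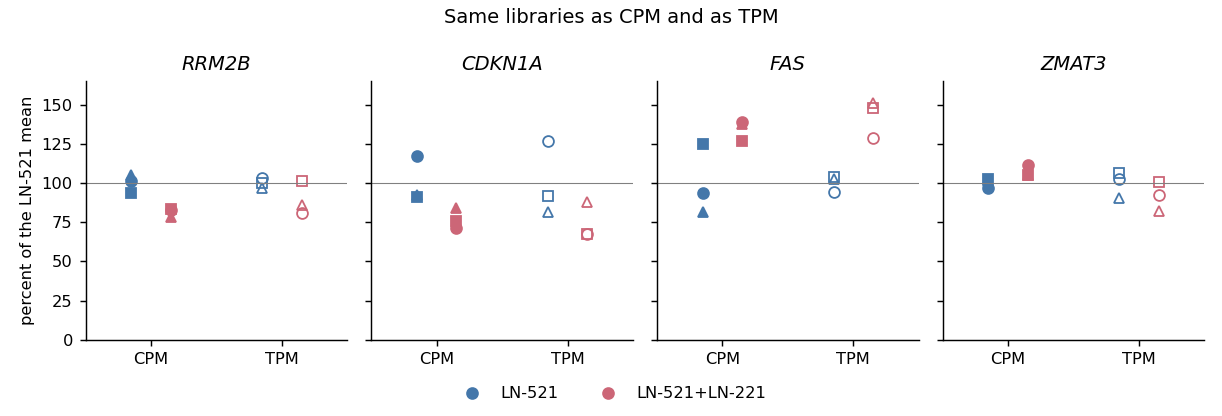
RRM2B, CDKN1A, FAS and ZMAT3 in each library as CPM (filled) and TPM (open), as a percentage of the LN-521 mean of the same unit. Circles, squares and triangles are replicates 1, 2 and 3. In CPM the coatings are separate for all 4 genes. In TPM they are separate only for FAS, whose LN-521+LN-221 libraries lie at 0.93 to 1.09 TPM against 0.68 to 0.75 TPM.

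The regulators of p53 were compared next. Of the 15 listed, 13 were tested, 1 rose, none fell and 12 did not pass the threshold, with a median log2 fold change of 0.036. MDM4, which binds p53 and blocks its activation domain, had a log2 fold change of 0.024 (edgeR adjusted p = 0.914), and PPM1D, the phosphatase WIP1 that ends the damage signal, had -0.017 (edgeR adjusted p = 0.959).

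TP53BP1, a DNA double-strand break response protein first found as a p53 partner, was the regulator that rose. Its CPM was 122.6, 116.4 and 117.8 on LN-521 against 138.9, 137.5 and 140.3 on LN-521+LN-221. The groups lay well apart, and the log2 fold change was 0.22 ± 0.05 (SE; edgeR adjusted p = 0.0288). It lost the threshold without LN-521 replicate 3 (0.152) and without LN-521+LN-221 replicate 1 (0.123), 2 (0.157) or 3 (0.180), and with library size alone (0.0508), all as edgeR adjusted p, while the log2 fold change in these fits was 0.215 to 0.233. Its exons overlap TUBGCP4 on the other strand. TP63, a p53 relative, had 2 to 8 counts per library and CDKN2A, which encodes the MDM2 inhibitor ARF, 0 to 8, so both fell short of the filter.

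A wider list of 56 known p53 targets outside the 9 members was read by role. An ID was matched for 55 and 53 were tested: 4 rose, 1 fell and 48 did not pass, a share of 9.43% beside 2.53% of all genes tested. The direction was mixed, with 23 fold changes above 0 and 30 below and a median log2 fold change of -0.0195. The list was chosen with earlier results of these data known, and its share is given as a description.

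Among the 9 genes of cell cycle and growth arrest, 2 rose and 7 did not pass. GADD45A, a stress sensor that binds PCNA and p21 and is induced by p53-dependent and p53-independent routes, had CPM of 3.18, 3.16 and 3.57 on LN-521 against 6.16, 6.37 and 5.03 on LN-521+LN-221. The groups were widely separated, and the log2 fold change was 0.82 ± 0.15 (SE; edgeR adjusted p = 0.00487), the largest in these lists and a rise of 76.8% on 73 to 142 counts per library. Its adjusted p was 0.0504 without LN-521+LN-221 replicate 2. TP53I11, or PIG11, had CPM of 43.1, 41.0 and 37.8 on LN-521 against 48.8, 48.8 and 50.6 on LN-521+LN-221. Every LN-521+LN-221 library was higher, and the log2 fold change was 0.28 ± 0.07 (SE; edgeR adjusted p = 0.0338).

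TP53I11 did not pass without LN-521 replicate 3 (0.222) or LN-521+LN-221 replicate 1 (0.111), 2 (0.155) or 3 (0.197), as edgeR adjusted p, and its exons overlap TSPAN18 on the other strand. CCNG1, cyclin G1, was an abundant target at 681 and 756 CPM, with a log2 fold change of 0.15 (edgeR adjusted p = 0.200). SFN, the 14-3-3 sigma protein that holds cells in G2, had -0.55 (edgeR adjusted p = 0.435) on 17 to 45 counts per library, and -0.93 without LN-521+LN-221 replicate 3 (edgeR adjusted p = 0.280).

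Of 17 death genes 16 were tested, and 1 fell while 15 did not pass. The gene that fell was PMAIP1, which encodes NOXA, a BH3-only protein that neutralises MCL1. Its CPM was 221.2, 207.7 and 248.1 on LN-521 against 186.9, 171 and 155.8 on LN-521+LN-221. In CPM all LN-521+LN-221 libraries were below all LN-521 libraries. In TPM the groups overlapped, with LN-521 replicate 2 at 91.2 and LN-521+LN-221 replicate 1 at 95.4. The log2 fold change was -0.40 ± 0.07 (SE; edgeR adjusted p = 0.00494), a drop of the mean from 225.7 to 171.2 CPM. The adjusted p was 0.0699 without LN-521 replicate 1 and 0.0542 without LN-521 replicate 3. BAX, the pore-forming effector, had a log2 fold change of -0.25 (edgeR adjusted p = 0.182), and -0.376 with limma on log2(TPM + 1) (limma adjusted p = 0.383). BBC3, or PUMA, had -0.11 (edgeR adjusted p = 0.729).

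None of the 5 DNA repair targets passed the edgeR test with all 6 libraries, and none had an unadjusted p under 0.05. XPC, which recognises bulky lesions, had a log2 fold change of -0.060 (edgeR adjusted p = 0.770), and its partner in damage recognition DDB2 had -0.14 (edgeR adjusted p = 0.386), -0.067 without LN-521 replicate 3, and -0.21 without LN-521 replicate 1, where it passed (edgeR adjusted p = 0.0464). None of the 5 passed with DESeq2 either.

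Among 10 tested genes of metabolism, redox control and autophagy, 1 rose and 9 did not pass. SESN3, the sestrin that is better known as a FOXO target, had CPM of 721.6, 556 and 534.7 on LN-521 against 888.2, 862.6 and 850.9 on LN-521+LN-221. LN-521 replicate 1 was the highest of its group, still below all LN-521+LN-221 libraries, and the log2 fold change was 0.52 ± 0.10 (SE; edgeR adjusted p = 0.0393). It did not pass with library size alone (0.0756), without LN-521 replicate 2 (0.229) or without LN-521+LN-221 replicate 1 (0.101), 2 (0.0798) or 3 (0.155), as edgeR adjusted p.

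The other sestrins did not pass: SESN1 is given above, and SESN2 had a log2 fold change of -0.10 (edgeR adjusted p = 0.685), or -0.035 without LN-521 replicate 2. TIGAR, a phosphatase that lowers glycolytic flux, had CPM of 6.06, 4.93 and 6.78 on LN-521 against 8.48, 7.62 and 7.22 on LN-521+LN-221. The groups did not overlap in CPM, and the log2 fold change was 0.39 ± 0.14 (SE; edgeR adjusted p = 0.174). In TPM they overlapped, at 2.25 to 3.93 on LN-521 against 2.52 to 4.18 on LN-521+LN-221. With limma on log2(TPM + 1) the log2 difference was 0.14 (limma adjusted p = 0.910). SESN3 and TIGAR exons both overlap unnamed transcripts on the other strand, and TIGAR exons also overlap AC008012.1 on the same strand.

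Of 13 tested signalling and surface genes, 1 rose and 12 did not pass. TRIM22, an interferon-inducible antiviral E3 ligase that is also a p53 target, had CPM of 38.3, 32.9 and 33.6 on LN-521 against 48.9, 47.4 and 43.3 on LN-521+LN-221. The groups did not overlap, and the log2 fold change was 0.41 ± 0.08 (SE; edgeR adjusted p = 0.00520). Its exons overlap OR56B1 on the same strand. Its adjusted p was 0.0589 without LN-521 replicate 3 and 0.0508 without LN-521+LN-221 replicate 2.

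**Figure D3:**
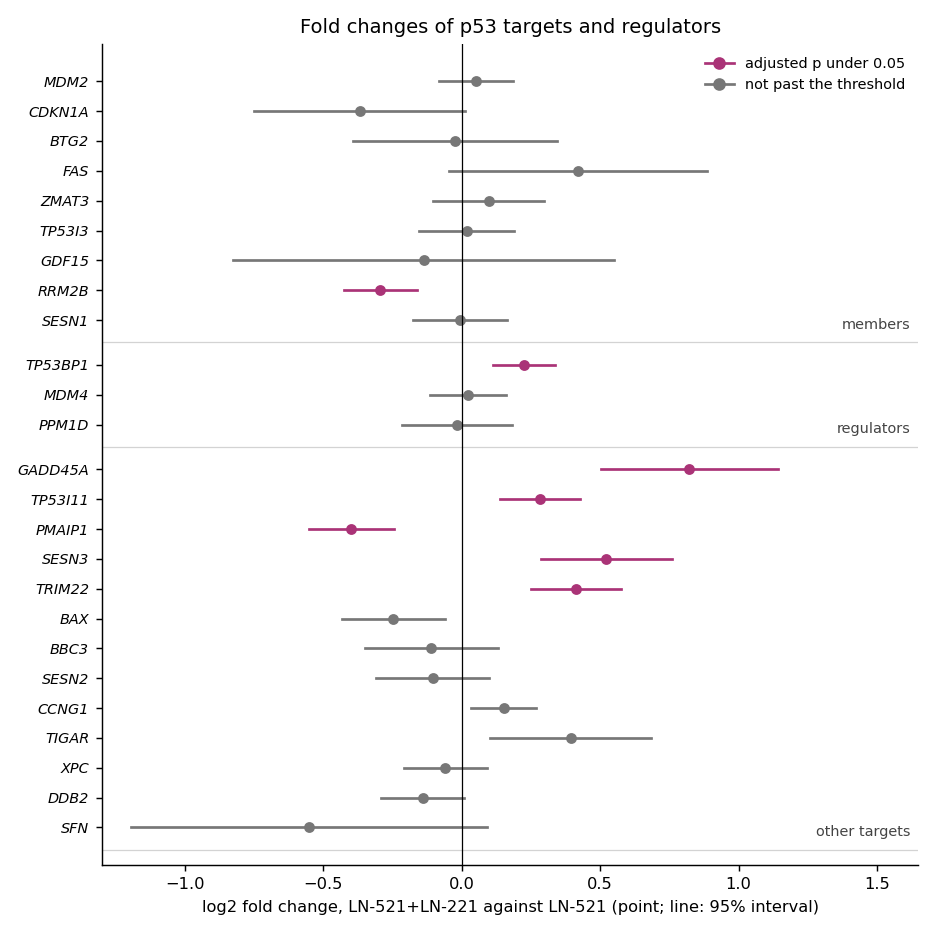
Log2 fold changes (points) with 95% intervals (lines) of the 9 members, the named regulators and the other named targets. Purple marks genes with an edgeR adjusted p under 0.05: RRM2B and PMAIP1 lie to the left of 0, and TP53BP1, GADD45A, TP53I11, SESN3 and TRIM22 to the right.

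None of the 7 genes in purple passed in any of the 4 fits on TPM, where limma called 1 to 62 genes in all and the test changed along with the unit. Their directions were kept in those fits. On the log2(TPM + 1) scale the differences were 0.60 for GADD45A, 0.59 for SESN3, 0.46 for TRIM22, 0.31 for TP53I11, 0.30 for TP53BP1, -0.34 for PMAIP1 and -0.16 for RRM2B. The count of called regulators and other targets was 6 of 66 and depended on the library left out. It was 13, with 8 higher and 5 lower, without LN-521 replicate 1, the library that stood apart, and calls over all genes rose with it, from 2.53% to 6.54%. The 8 genes added there were RCHY1, CCNG1 and PERP, which were higher, and BAX, PIDD1, CDIP1, DDB2 and GLS2, which were lower, while PMAIP1 no longer passed; several of these names were chosen after their values were seen. The count was 5, with 4 higher and 1 lower, without LN-521 replicate 2, where 3.56% of all genes passed. It was 2 without LN-521 replicate 3, and 3, 1 and 3 without LN-521+LN-221 replicates 1, 2 and 3, where 1.13%, 1.61%, 1.1% and 1.09% of all genes passed. With a library left out, log2 fold changes were 0.21 to 0.25 for TP53BP1, 0.76 to 0.92 for GADD45A, 0.23 to 0.33 for TP53I11, 0.44 to 0.67 for SESN3, 0.37 to 0.48 for TRIM22 and -0.46 to -0.33 for PMAIP1. BAX had a log2 fold change of -0.30 (edgeR adjusted p = 0.0365) in the fit without LN-521 replicate 1.

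**Figure D4:**
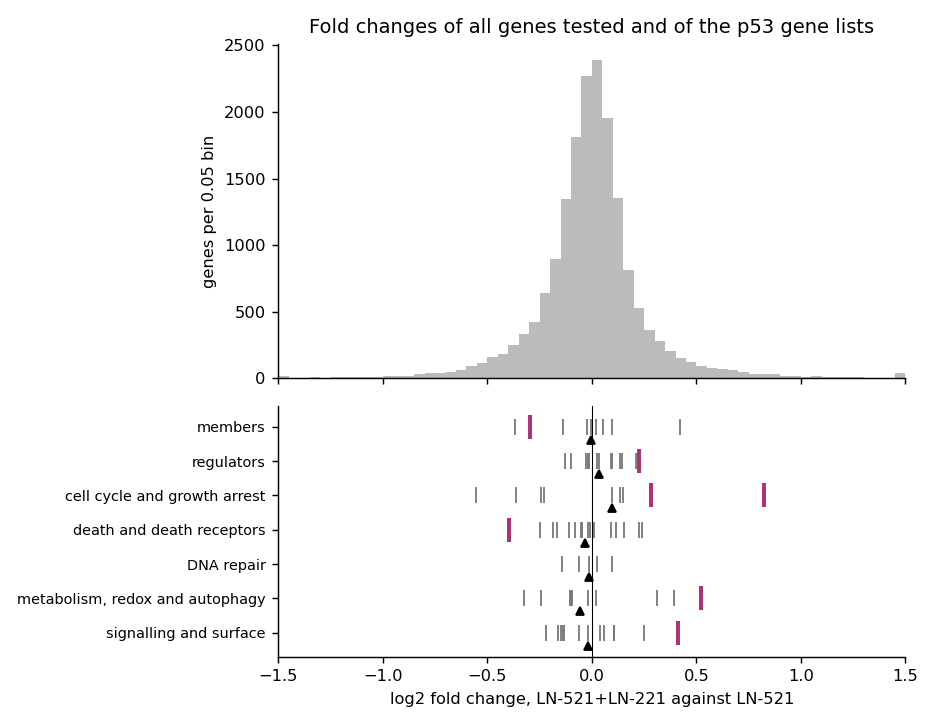
Upper panel, number of genes per bin of log2 fold change for the 17608 genes tested, with values beyond the axis placed in the outermost bins. Lower panel, each tested gene of a list as a tick (purple with an edgeR adjusted p under 0.05) and the list's median as a triangle; the members' median is -0.0062 and the regulators' 0.036.

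The sequence matches were then set beside the fold changes. Of the members and other targets that were tested and have a RefSeq window, 12 hold a p53 element by the search above and 39 do not. Of the 12, none rose and 1, PMAIP1, fell, with a median log2 fold change of -0.064 and a range of -0.40 to 0.42. Of the 39, 2 rose and none fell, with a median of -0.018. Of all genes tested 2.53% passed in either direction. RRM2B, GADD45A and TRIM22, which passed the test, are in neither count. MDM2, SESN1, FAS and GDF15, whose elements are printed above, did not pass the test.

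**Figure D5:**
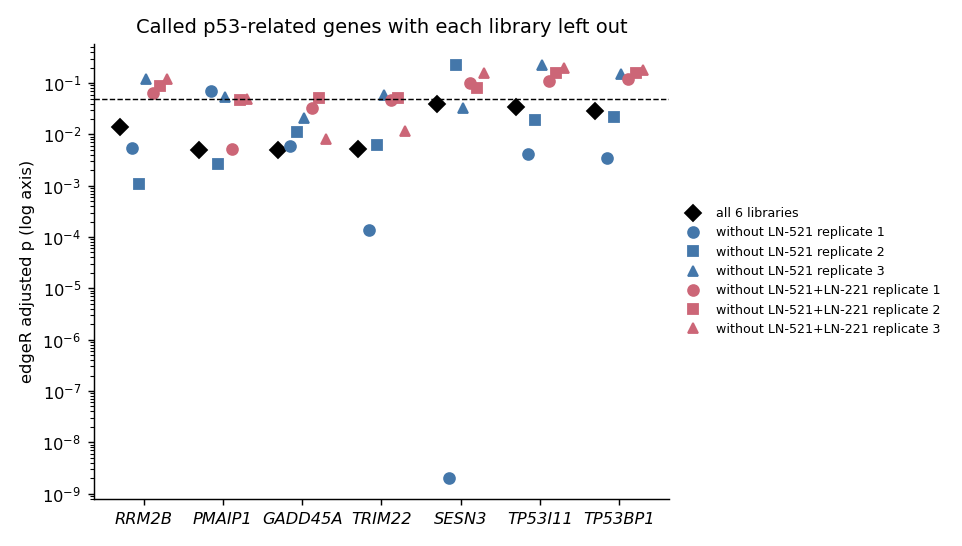
Adjusted p-values of the 7 p53-related genes with an edgeR adjusted p under 0.05, on a log axis, with all 6 libraries (diamonds) and with each library left out (blue for LN-521, red for LN-521+LN-221). The dashed line is 0.05. None of the 7 stays under it in all 6 fits: GADD45A rises above it in 1, PMAIP1 and TRIM22 in 2, and RRM2B, SESN3, TP53I11 and TP53BP1 in 4.

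The genes most like MDM2 and CDKN1A over the libraries were sought among 9784 (MDM2) or 9785 (CDKN1A) other protein-coding genes with a mean of at least 10 CPM. For MDM2 these were ZNF28 (Pearson r = 0.995, Spearman rho = 1), BNIP2 (r = 0.995, rho = 0.943) and TMX3 (r = 0.994, rho = 1), over 6 libraries. For CDKN1A they were BAZ2A, TMEM70 and CTSL, each with r = 0.977 and rho = 1 over the same 6 libraries. The values share library and depth and were picked as the highest among all genes compared, so they are descriptions only. None of the 6 genes passed the test between the coatings, with edgeR adjusted p-values from 0.311 for BAZ2A to 0.764 for BNIP2.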

How the data were processed

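RNA of 6 wells of H1 cells was sequenced after stranded total RNA library preparation, in 1 sequencing batch per the deposited sample sheet. Per the submitters' processing notes the tools were cutadapt, STAR 2.5.2b and RSEM 1.2.31 with build hg38; the annotation is not given in the sources used here. The authors deposited estimated counts per gene, of which 6.08% to 6.67% per library are not whole, and TPM values that sum to 1000000 in every library. Symbols and gene IDs were paired by a supplied table; of 80 members and pathway genes 79 matched. Exon overlaps came from GENCODE release 29.

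Counts were rounded, filtered with edgeR's filterByExpr (minimum count 10), scaled by TMM and tested with the quasi-likelihood test of edgeR 4.0.16 (R 4.3.3; robust; no block), with Benjamini-Hochberg adjustment over 17608 genes and a threshold of 0.05. CPM are rounded counts over TMM-scaled library sizes. The standard error is the absolute log2 fold change over the square root of F, and intervals are 95%. Alternatives used DESeq2 1.42.0 and limma 3.58.1 on log2(TPM + 1) and log2(TPM + 0.1). The scripts were tested on simulated data. No 2 libraries agreed within sampling noise (chi-square per degree of freedom at least 2.85).

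The members and lists were chosen with earlier results of these data known. Named were all members, list genes with an adjusted p under 0.05, fixed genes (MDM4, PPM1D, BAX, BBC3, PMAIP1, SESN2, SESN3, CCNG1, TIGAR, XPC and DDB2), the 2 largest uncalled targets (SFN and TIGAR) and, for MDM2 and CDKN1A, the 3 most correlated genes. 1 further fixed gene is not reported here.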

Additional observations from a re-analysis of the deposited data

How the results depend on the processing

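The 446 genes past the threshold over all genes were 448 with RLE size factors, 420 with library size alone, 464 with a filter of 1 CPM in 3 libraries, 528 with DESeq2 and 646 with the replicate number as a block; they were 718 without a filter (336 higher, 382 lower, against 246 and 200), 33 with log2(TPM + 1), 16 with log2(TPM + 0.1), 1 with log2(TPM + 1) without a filter and 62 with rescaled TPM, a setting chosen after seeing the data. Leaving out a library gave 194 to 1179. The member count of 1 was 0 in all 4 TPM settings and 0 to 1 with a library left out, and the pathway count of 6 was 0 in the 4 TPM settings, 4 with library size alone and 1 to 13 with a library left out. With the replicate block the member count stayed 1 (RRM2B, log2 fold change -0.293) and the pathway count was 7, PERP being added. Deviations from the group means correlated at 0.0448, -0.025 and 0.0188 for same-numbered wells, beside a mean of -0.00645 for other pairs. No shared effect of the replicate number was seen in these values, which cannot say if wells were paired by design. Over all genes the median log2 fold change moved by under 0.05 in every setting run.

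Directions turned for genes that did not pass. SESN1 was 0.138, 0.152, 0.138 and 0.101 with log2(TPM + 1), log2(TPM + 0.1), log2(TPM + 1) without a filter and rescaled TPM, and 0.0473 and 0.0231 without LN-521 replicate 3 and LN-521+LN-221 replicate 3. ZMAT3 was -0.0706, -0.118, -0.0706 and -0.0947 in the same 4 TPM settings. TP53I3 was -0.0186 with rescaled TPM, and -0.00721 to 0.0425 with a library left out. With a library left out MDM2 ranged from -0.000466 to 0.122, SESN1 from -0.0525 to 0.0473, BTG2 from -0.159 to 0.127, MDM4 from -0.024 to 0.0898, PPM1D from -0.097 to 0.0587, BBC3 from -0.191 to 0.027 and XPC from -0.103 to 0.00385. Why these values turned was not tested, and the cause was not tested for the counts either. GDF15 and FAS have no value in the filtered TPM settings, where they were not tested.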
